A study of Mus musculus with 15 samples.

Results

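Acta1, Myh1, Myh4, Tnnt3, Tnni2, Tnnc2, Mylpf, Actn3, Pvalb and Atp2a1 are 10 genes of the contractile and calcium-handling machinery of fast skeletal muscle fibres. They were followed here in knee joint synovium of mice with collagen-induced arthritis (CIA), a model in which immunization with type II collagen is followed by joint swelling. The members were chosen by name, from earlier results of these same arrays, and they were found as the probe sets to which the platform annotation gives one of these symbols and no other. That rule returned 10 of the 18194 genes named on the arrays, through 15 of the 45101 probe sets: 3 each for Myh1 and Tnni2, 2 for Myh4 and 1 for each of the other 7 genes. Total RNA had been hybridized to 15 Affymetrix arrays in 5 groups of 3. The groups were healthy naive joints and CIA joints graded as having no, mild, moderate or severe swelling. The protocol text attached to every sample, the naive ones included, describes an immunization with 100 ug collagen in FCA on day 0 and a boost on day 21, so what the naive animals received is not settled by the labels. The strain, age and sex of the mice are not given in the sources used here, and the labels do not say whether the 3 samples of a group are separate animals; every p-value below therefore reflects no more than the scatter among those samples, which may be technical.

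A muscle fibre shortens when the heads of myosin thick filaments pull on actin thin filaments. Each force pulse begins with calcium leaving the sarcoplasmic reticulum and binding to the troponin complex on the thin filament, and it ends when a calcium pump returns the ion to the store. Fast fibres use their own isoforms at nearly every step of this cycle, and they lie in the thigh and calf muscles that surround the knee, whereas the synovium itself is a lining of fibroblasts and macrophages. In a bulk sample such as these, fewer muscle fibres and less RNA per fibre cannot be told apart.

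Myh1 and Myh4, which encode the heavy chains of fast myosin types 2X and 2B, are direct neighbours on mouse chromosome 11, between Myh2 and Myh8. Tnni2 and Tnnt3 lie on chromosome 7 with Lsp1 between them. RefSeq promoter entries (GRCm38.p6) matched 7 of the 10 members, with 8 entries in all; Tnni2, Tnnt3 and Actn3 had none in the table. The 250 bases before the annotated start are shown for skeletal actin and for both heavy chain genes, because these genes are described side by side below and the neighbouring pair shares a motif. Capitals mark matches to 4 motifs, searched on both strands: the E-box CANNTG, the TATA box TATAAA, the CArG box and the MEF2 site.
Acta1, chr8:123894776-123895025, minus strand: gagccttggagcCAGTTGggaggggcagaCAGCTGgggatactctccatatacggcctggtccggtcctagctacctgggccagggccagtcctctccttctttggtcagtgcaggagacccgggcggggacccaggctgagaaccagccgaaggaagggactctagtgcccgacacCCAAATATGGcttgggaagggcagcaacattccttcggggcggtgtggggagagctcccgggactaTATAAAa
Myh1, chr11:67199852-67200101, plus strand: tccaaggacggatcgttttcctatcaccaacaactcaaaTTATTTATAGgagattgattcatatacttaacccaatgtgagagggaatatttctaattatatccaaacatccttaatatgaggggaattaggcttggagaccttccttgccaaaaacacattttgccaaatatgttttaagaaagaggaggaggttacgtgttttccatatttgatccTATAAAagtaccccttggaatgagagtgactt
Myh4, chr11:67237562-67237811, plus strand: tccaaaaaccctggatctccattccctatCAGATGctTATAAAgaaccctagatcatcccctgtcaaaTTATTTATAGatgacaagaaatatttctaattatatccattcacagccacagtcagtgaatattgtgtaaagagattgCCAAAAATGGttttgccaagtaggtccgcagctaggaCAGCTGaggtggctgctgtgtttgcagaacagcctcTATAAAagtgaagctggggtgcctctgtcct

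Counted back from the annotated start, the Acta1 stretch held a CArG box at -73 to -64 and E-boxes at -238 to -233 and -221 to -216. Its TATA box letters lay at -7 to -2. Myh1 and Myh4 held the same MEF2 letters, at -211 to -202 and -182 to -173, each overlapping a TATA box match on the reverse strand. Both also had a TATA box close to the start, at -32 to -27 in Myh1 and -31 to -26 in Myh4, and Myh4 had a CArG box at -104 to -95. Over the 8 member entries, 6 held an E-box, 3 a TATA box, 2 a CArG box and 3 a MEF2 site. Of the 32851 promoters of the table, 66.2% held an E-box, 12.4% a TATA box, 1.47% a CArG box and 2.92% a MEF2 site. These are matches of letters and no binding was measured.

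The fast-fibre genes were among the brightest features of every array, and this sets how their differences can be read. The deposited values are MAS5 signals on a linear intensity scale, whose mean after trimming 2% at each end is 150.0 on all 15 arrays. The brightest probe set of an array ran from 6739 on moderate replicate 1 to 15365 on no swelling replicate 1, so the maximum itself moved between arrays. That brightest probe set was Tnnt3 on 8 arrays, Mylpf on 3 and Tnni2 on 1; on the other 3 it was Sparc, a matrix protein gene. Taking each member's brightest probe set, 9 members lay between 64.2% and 100% of their array's maximum on all 15 arrays, and none ranked below position 79. Myh1 lay between 39.2% and 70.3% and reached 50% on 14 arrays. Over all 15 member probe sets, 176 of 225 values were at 50% of the array maximum or more, a range that held only 132 to 358 probe sets per array. A spiked-in control transcript, cre, lay in the same range, at 68.2% to 82.4% of the maximum. The cre signal moved between groups too. Its means (± SD, n = 3) were 9494 ± 662 naive, 11404 ± 1294 without swelling, 7172 ± 476 mild, 7070 ± 1746 moderate and 9776 ± 2496 severe. Where a probe set is this close to the top, its signal can understate a difference in RNA, and the size of that effect was not tested.

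**Figure D1:**
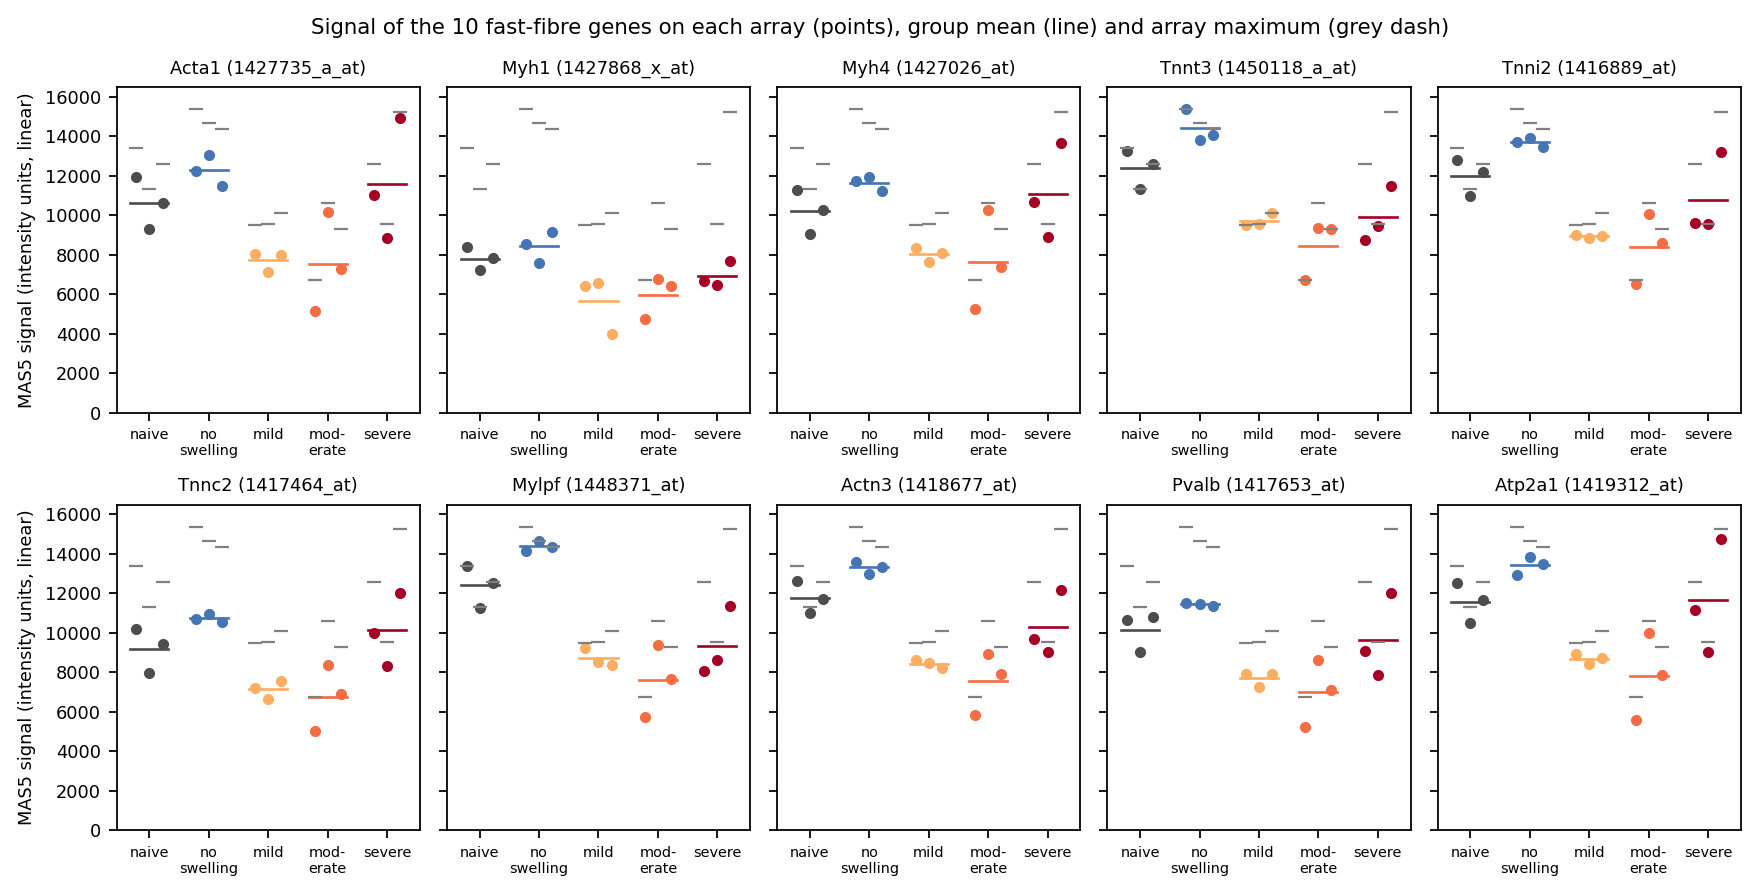
MAS5 signal (linear intensity units) of the brightest probe set of each of the 10 genes on each array: points are arrays, coloured lines are group means of 3 arrays and grey dashes are the maximum of that array. The points of Tnnt3, Mylpf and Tnni2 touch or lie near the dashes on the unswollen arrays. On severe replicate 1 they are at 69.7%, 64.2% and 76.5% of the maximum, on replicate 2 at 99.2%, 90.2% and 100%, and on replicate 3 at 75.4%, 74.3% and 86.6%. The dashes move between arrays, from 6739 to 15365.

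Among the brightest probe sets of the members, that of Mylpf, the fast regulatory light chain of myosin, showed the widest drop with swelling on the deposited scale. Dimmer probe sets of Myh4 and Tnni2, described below, fell further in moderate against naive and in severe against no swelling. Mylpf gave signals of 13409, 11248 and 12549 on the naive arrays and 14158, 14667 and 14371 without swelling. With swelling it gave 9219, 8547 and 8360.4 on the mild arrays, 5731, 9398 and 7638 on the moderate arrays and 8068, 8607 and 11336 on the severe arrays. All 9 swollen arrays stayed below the lowest array without swelling, and only severe replicate 3 reached the range of the naive arrays. Its rank on the array went from 1 or 2 on the 6 unswollen arrays to positions 2 to 65 on the swollen ones, a measure that needs no scaling.

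Tnnt3 encodes fast troponin T, which anchors the troponin complex to tropomyosin. Tnnt3 gave signals of 13265, 11307 and 12572 on the naive arrays and 15365, 13815 and 14090.0 without swelling. With swelling it gave 9500.0, 9549 and 10093 on the mild arrays, 6739, 9328 and 9298 on the moderate arrays and 8759.9, 9472 and 11504 on the severe arrays. The 3 arrays without swelling stood above every other array. On severe replicate 1 and replicate 3 it dropped to ranks 47 and 28, while on severe replicate 2 it held rank 3. On all mild arrays it was the brightest probe set.

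Acta1, the skeletal muscle actin of the thin filament, had a different course at the severe grade. Acta1 gave signals of 11919.8, 9285 and 10603 on the naive arrays and 12260.3, 13065 and 11506 without swelling. With swelling it gave 8012, 7124 and 7989 on the mild arrays, 5147, 10148 and 7256 on the moderate arrays and 11027, 8837 and 14914 on the severe arrays. Severe replicate 3 exceeded all 14 other arrays, and the severe group as a whole overlapped both unswollen groups. Moderate arrays spread over a wide range, with replicate 1 lowest of all and replicate 2 inside the naive range.

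Myh4, the type 2B heavy chain, has a brighter and a dimmer probe set, and the brighter one ran close to Acta1. Myh4 gave signals of 11300.3, 9068 and 10282 on the naive arrays and 11734, 11935 and 11221 without swelling. With swelling it gave 8333, 7644 and 8061 on the mild arrays, 5251, 10241 and 7377 on the moderate arrays and 10665, 8891 and 13660.3 on the severe arrays. The mild arrays lay below all unswollen ones, and moderate replicate 2 and severe replicates 1 and 3 lay at or above the lowest naive array. Across the 15 arrays its log2 values had a Pearson r of 0.995 with those of Acta1, a description in which the points share the scale of their array.

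Myh1, the type 2X heavy chain, was the dimmest of the members' main probe sets. Myh1 gave signals of 8375, 7235 and 7809 on the naive arrays and 8541, 7564 and 9156 without swelling. With swelling it gave 6399.6, 6565 and 3959.7 on the mild arrays, 4734, 6761 and 6419 on the moderate arrays and 6649.9, 6481 and 7660.1 on the severe arrays. Mild replicate 3 was the lowest array and sat apart from the other mild arrays. A second Myh1 probe set gave group means of 5885 ± 343 (SD, n = 3) naive, 6144 ± 839 without swelling, 4621 ± 904 mild, 4922.5 ± 712 moderate and 5035 ± 526 severe. The third gave group means of 2.6 to 4.4 and did not pass the signal filter, so 14 of the 15 member probe sets were tested.

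The other 5 members traced the same outline of high without swelling, low at mild and moderate, and wide at severe. Group means of Tnni2 (its brightest probe set), the fast inhibitory troponin, were 11979 ± 917 naive, 13703 ± 223 without swelling, 8936 ± 60.7 mild, 8397 ± 1801 moderate and 10794 ± 2096 severe. Tnnc2, the fast calcium-binding troponin, had means of 9199.5 ± 1128, 10727 ± 200.2, 7154 ± 462, 6763 ± 1679.8 and 10125 ± 1841 in the same order. Actn3, the fast Z-disc actinin that cross-links actin filaments, had means of 11768 ± 815, 13316 ± 309, 8434 ± 192, 7564 ± 1555 and 10297 ± 1673. Calcium handling looked alike. Pvalb, the calcium buffer parvalbumin, had means of 10160.2 ± 975, 11447 ± 75.5, 7693 ± 385, 6978 ± 1721 and 9644 ± 2125. Atp2a1, the fast reticulum calcium pump, had means of 11546 ± 1018, 13415 ± 474, 8686 ± 248, 7824 ± 2204 and 11652 ± 2881. In each of these 5 genes the SD of the moderate and severe groups were the 2 largest.

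The step from no to mild swelling carried the most uniform difference on the deposited scale. All 10 members fell in mild against no swelling, by limma on log2(signal + 16) with Benjamini-Hochberg adjustment over 14310 genes and an adjusted p under 0.05, where 15.5% of all genes were called lower and 22.9% higher. The median of the members was -0.61 against 0.09 over all genes tested, but it was 0.17 once arrays were scaled on the hybridization controls, and no member was called with that scaling or with quantile normalization. All 10 had every mild array below every array without swelling, as had 19.3% of genes. Of 65 genes outside the muscle lists whose mean signal was also 50% or more of the array maximum, 41 were called lower and 3 higher, with a median of -0.42. The 65 were not screened for muscle expression beyond those lists. They include Aldoa, which had a Pearson r of 0.99 with the members' mean. The spiked-in cre control also had a lower mean signal at this step, 7172 mild against 11404 without swelling. Every comparison described here shares a group of arrays with at least 1 other, so the counts do not add up as independent evidence.

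Thick-filament genes changed by similar amounts at this step. Mylpf fell by 0.73 ± 0.17 (log2 fold change ± SE, adjusted p = 0.00288), to 0.605 of its level without swelling. Myh1 fell by 0.61 ± 0.18 (adjusted p = 0.0152) and Myh4 by 0.54 ± 0.20 (adjusted p = 0.0428). The Myh4 call was the most fragile, since leaving out any one of the 6 arrays ended it. Thin-filament genes followed: Acta1 fell by 0.67 ± 0.21 (adjusted p = 0.0211) and Tnni2 by 0.62 ± 0.16 (adjusted p = 0.00592). Tnnc2 fell by 0.59 ± 0.17 (adjusted p = 0.014) and Tnnt3 by 0.57 ± 0.14 (adjusted p = 0.00532). Leaving out mild replicate 2 or no swelling replicate 2 ended the Acta1 call, and leaving out mild replicate 3 or no swelling replicate 3 ended that of Myh1.

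At the Z-disc, Actn3 fell by 0.66 ± 0.15 (adjusted p = 0.00284). The calcium genes Atp2a1 and Pvalb fell by 0.63 ± 0.19 and 0.57 ± 0.17 (adjusted p = 0.0165 and 0.0165). The 10 estimates thus ran from -0.73 to -0.54, a span that is narrow beside their standard errors of 0.14 to 0.21. On all 6 arrays the brightest probe set was itself Tnnt3 or Mylpf, so the array maximum gives no separate measure of this step.

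In joints without swelling the members stood slightly above naive. Their estimates ran from 0.11 ± 0.18 (Myh1) to 0.23 ± 0.17 (Tnnc2), with a median of 0.21 that shrank to 0.01 with quantile normalization. By limma 0 of 10 were called, against 3.32% of all genes called in either direction, and 0 had an unadjusted p under 0.05, against 18.9% of all genes. Tnnt3, at 0.22 ± 0.14 (adjusted p = 0.436), and Mylpf, at 0.22 ± 0.17 (adjusted p = 0.525), were among the 7 members with all 3 arrays without swelling above the naive ones, as for 12.9% of genes. Acta1, Myh1 and Myh4 overlapped between the groups.

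In mild swelling 4 members fell against naive on the deposited scale, where 17% of genes were called lower and 22.9% higher. Mylpf fell by 0.51 ± 0.17 (adjusted p = 0.0228), Myh1 by 0.50 ± 0.18 (adjusted p = 0.0385), Actn3 by 0.48 ± 0.15 (adjusted p = 0.0184) and Tnni2 by 0.42 ± 0.16 (adjusted p = 0.044). The other 6 had estimates of -0.45 (Acta1) to -0.35 (Myh4) and did not pass. These calls rested on single arrays: 0 were left without naive replicate 1 or without mild replicate 3, 1 without naive replicate 3 and 2 without naive replicate 2. On the hybridization control scale the median of the members was 0.23 in place of -0.41, with 0 called, and it was -0.02 with quantile normalization, again with 0 called.

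In moderate swelling 8 of 10 members fell against naive, where 23.7% of genes were called lower and 30.8% higher. Mylpf fell by 0.73 ± 0.17 (adjusted p = 0.00138) and Actn3 by 0.66 ± 0.15 (adjusted p = 0.00151), followed by Atp2a1, Pvalb, Tnnt3, Acta1, Tnni2 and Tnnc2, the last at -0.47 ± 0.17 (adjusted p = 0.0316). Myh4, at -0.47 ± 0.20 (adjusted p = 0.0566), and Myh1, at -0.40 ± 0.18 (adjusted p = 0.0752), did not pass. All moderate arrays were below all naive ones for 7 members, as for 28.6% of genes. Moderate replicate 1, whose array maximum was the lowest of all, carried much of this: without it 3 members were called, and without naive replicate 1 there were 5. The median of -0.55 became -0.06 on the hybridization controls and -0.09 with quantile normalization, where Mylpf alone kept its call (-0.23, adjusted p = 0.045).

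Between moderate and mild swelling 0 of 10 members were called by limma, where 6.59% of genes were called in either direction. At an unadjusted p under 0.05 there were also 0 members, against 23.7% of all genes. Estimates ran from -0.23 ± 0.17 (Mylpf) to 0.10 ± 0.18 (Myh1). Between severe and moderate swelling the members were mostly higher in the severe group without passing the test: the median was 0.46, and 7 had an unadjusted p under 0.05 while 0 were called. No gene at all was called in that comparison (0% of 14310, with 885 at an unadjusted p under 0.05). Tnnc2 had the smallest unadjusted p there, at 0.60 ± 0.17 (adjusted p = 0.742), and the median sank to 0.01 with quantile normalization and to 0.04 with scaling on the bright end of each array, the signal that 0.1% of its probe sets exceed.

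In severe against no swelling some members passed the threshold and others did not, and differences between members were not tested. Mylpf fell by 0.64 ± 0.17 (adjusted p = 0.00375), Tnnt3 by 0.55 ± 0.14 (adjusted p = 0.00393) and Actn3 by 0.38 ± 0.15 (adjusted p = 0.0404), which makes 3 of 10 where 21.9% of genes were called lower and 33% higher. Tnni2, at -0.36 ± 0.16, missed the threshold (adjusted p = 0.0631). Myh4, at -0.09 ± 0.20, Tnnc2, at -0.10 ± 0.17, and Acta1, at -0.11 ± 0.21, lay within 1 SE of 0. For 4 members the severe arrays were all below those without swelling, as for 23.5% of genes. Mylpf and Tnnt3 were also called with quantile normalization, at -0.40 (adjusted p = 0.00193) and -0.26 (adjusted p = 0.0452), although their estimates on the hybridization controls were 0.01 and 0.10. The Actn3 call ended when any array without swelling, severe replicate 1 or severe replicate 2 was left out, and 5 members were called without severe replicate 3.

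Severe against naive is the contrast in view when the members were chosen, so it is given as a description. Tested comparisons that use the naive or the severe arrays share arrays with it. All tested comparisons were run with earlier results of these data known, so their p-values are not free of that choice. Mylpf stood at -0.42 ± 0.17, Tnnt3 at -0.33 ± 0.14 and Actn3 at -0.20 ± 0.15. Tnni2, Myh1, Pvalb and Atp2a1 lay between -0.17 ± 0.18 (Myh1) and -0.01 ± 0.19 (Atp2a1). Myh4, Acta1 and Tnnc2 stood at 0.10 ± 0.20, 0.10 ± 0.21 and 0.13 ± 0.17. The median was -0.13, and the sign turned to 0.38 with scaling on the hybridization controls.

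The sign of the members' median depended on how the arrays were put on one scale, as the plot of medians by scaling shows. In mild against no swelling the median of the members was -0.61 as deposited and -0.78 with array medians aligned. It was -0.13 with scaling on the bright end, -0.04 with quantile normalization and 0.17 with scaling on the 9 hybridization control probe sets. The last setting also moved the median of all genes, from 0.09 to 0.71, and the bright end moved it to 0.48. Relative to the median of all genes, the members stood at -0.70 as deposited, -0.73 with medians aligned, -0.61 on the bright end, -0.54 on the hybridization controls and -0.04 with quantile normalization. All of these but quantile normalization multiply each array by 1 factor, which cancels in such a difference apart from the pseudocount, so their closeness is built in. Under quantile normalization, the only one that does not, little of the relative difference was left. In severe against no swelling the same 5 relative values were -0.42, -0.47, -0.39, -0.28 and -0.10. Quantile normalization gives every array the same set of values at the top of the range, where the members lie.

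**Figure D2:**
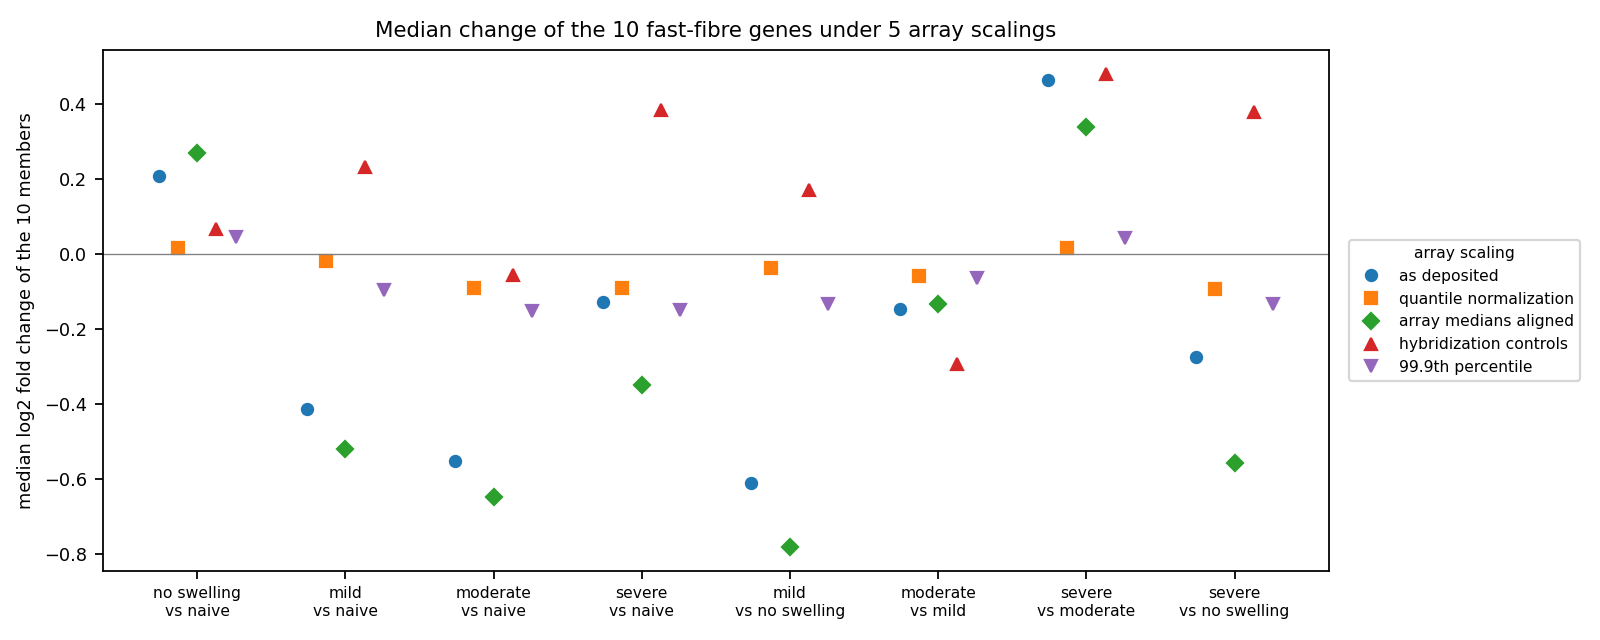
Median log2 fold change of the 10 members (vertical axis) in 8 comparisons (horizontal axis) under 5 ways of scaling the arrays, 1 symbol each. In mild against no swelling the median is -0.61 as deposited, -0.04 with quantile normalization and 0.17 on the hybridization controls, so its sign depends on the scaling.

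Myh1, Myh4 and Tnni2 each have a tested probe set farther from the array maximum than the brightest one of the gene. Those of Myh4 and Tnni2 gave larger differences in moderate against naive and in severe against no swelling, while that of Tnni2 gave smaller ones at the mild step and that of Myh1 gave no larger difference in any of these comparisons. The dimmer Myh1 probe set stood at -0.42 ± 0.16 in mild against no swelling (adjusted p = 0.0551), beside -0.61 ± 0.18 for the brighter one. In moderate against naive the pair stood at -0.27 ± 0.16 and -0.40 ± 0.18, and in severe against no swelling both were at -0.28. On the dimmer Myh4 probe set the naive arrays had signals of 8387, 7852 and 7484 and the arrays without swelling 7619.5, 6786 and 8189.5. Its mild arrays had 4991, 5770.4 and 3831, the moderate arrays 3239, 2422 and 2851 and the severe arrays 2887, 3432 and 3214. All 6 moderate and severe arrays lay below the lowest mild one, and all 9 swollen arrays below the lowest unswollen one. This probe set fell by 0.65 ± 0.15 in mild against no swelling (adjusted p = 0.00408, where 13.3% of the 31522 probe sets tested one by one were called lower) and by a further 0.76 ± 0.15 from mild to moderate (adjusted p = 0.0123, with 2.59% called lower). It fell by 0.72 ± 0.15 in mild against naive (adjusted p = 0.00163, with 15.3% called lower) and by 1.48 ± 0.15 in moderate against naive (adjusted p = 1.10e-06, with 22.5% called lower).

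In severe against no swelling the dimmer Myh4 probe set fell by 1.24 ± 0.15 (adjusted p = 6.72e-06, with 19.9% of probe sets called lower), beside -0.09 ± 0.20 for the brighter one. Quantile normalization left that value at -0.86 (adjusted p = 0.000325) and the moderate against naive value at -1.19 (adjusted p = 1.62e-05), while mild against no swelling became -0.22 (adjusted p = 0.335). On the hybridization controls severe against no swelling was -0.59 (adjusted p = 0.0989), moderate against naive -0.99 (adjusted p = 0.00506), and mild against no swelling turned to 0.14. The step from mild to moderate was lost when mild replicate 2 or moderate replicate 2 was left out (adjusted p = 0.0679 and 0.0633). Against naive, severe swelling stood at -1.31 ± 0.15 on this probe set and at 0.10 ± 0.20 on the bright one.

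The dimmest of the 3 Tnni2 probe sets had signals of 183, 221 and 173 on the naive arrays and 302, 241 and 160.3 without swelling. The mild arrays had 169.8, 304 and 146, the moderate arrays 73.2, 30 and 111 and the severe arrays 41.9, 91 and 73.4. These signals were 0.28% to 3.18% of the array maximum. On moderate replicate 2 and severe replicate 1 the signals of 30 and 41.9 lay below the array medians of 45.1 and 47.6. Differences of this probe set are given on the deposited scale only. Mild swelling overlapped both unswollen groups, and the 6 moderate and severe arrays lay below all 9 others. It stood at -0.20 ± 0.34 in mild against no swelling (adjusted p = 0.704) and at 0.04 ± 0.34 in mild against naive, beside -0.62 ± 0.16 and -0.42 ± 0.16 for the brightest. It fell by 1.57 ± 0.34 in severe against no swelling (adjusted p = 0.00112) and by 1.36 ± 0.34 in moderate against naive (adjusted p = 0.00319). From mild to moderate it fell by 1.40 ± 0.34 (adjusted p = 0.0282), a call lost when mild replicate 1 or 2 or moderate replicate 1 or 2 was left out (adjusted p = 0.0605, 0.167, 0.0575 and 0.132). The middle Tnni2 probe set fell by 0.45 ± 0.13 in severe against no swelling (adjusted p = 0.00982), beside -0.36 ± 0.16 for the brightest. In severe against naive the dimmest and the brightest Tnni2 probe sets stood at -1.33 ± 0.34 and -0.16 ± 0.16, a difference of -1.17, and the Myh4 pair differed by -1.41. Which transcripts each probe set detects was not examined, so the reason for these differences was not tested.

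**Figure D3:**
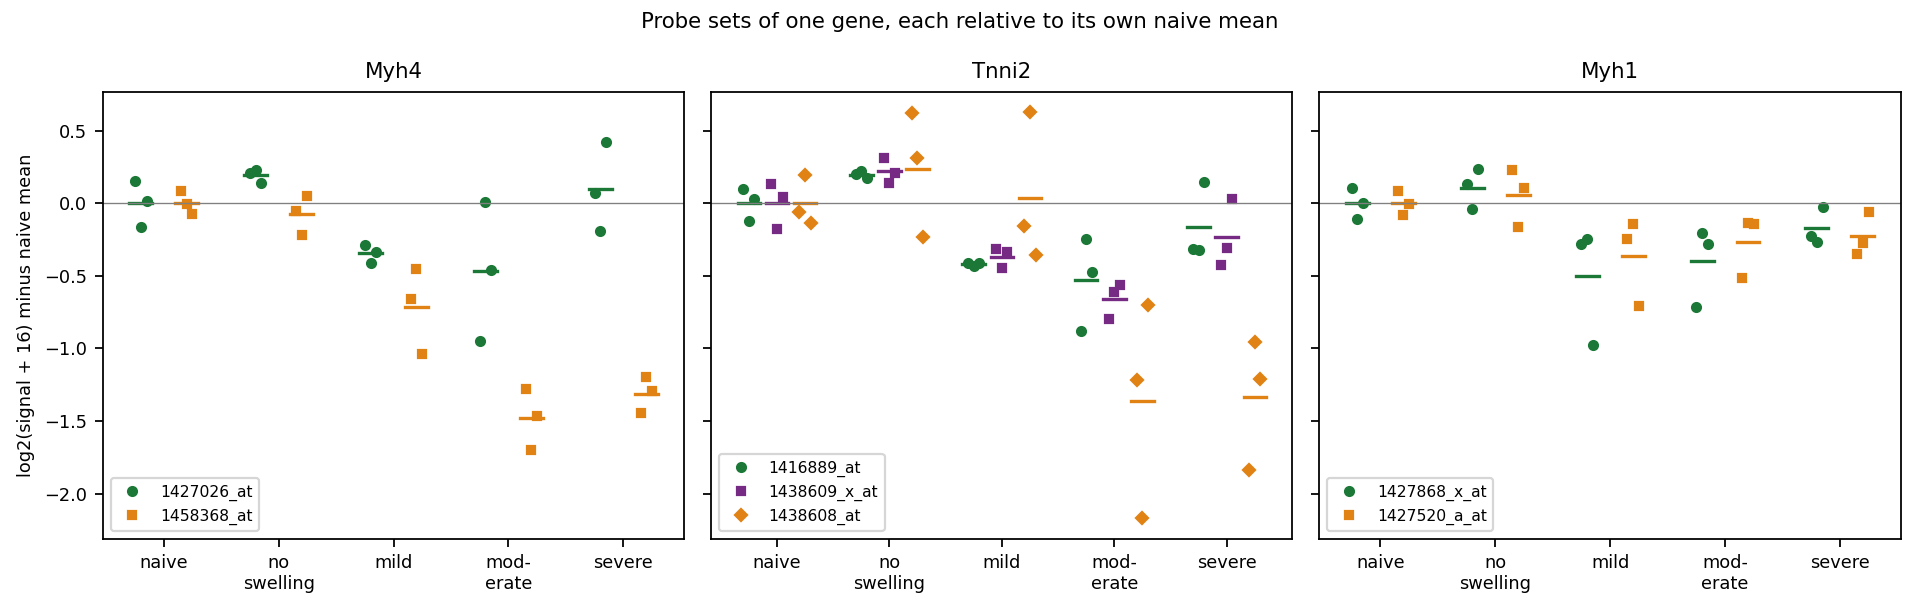
Probe sets of Myh4 (left), Tnni2 (middle) and Myh1 (right): log2(signal + 16) on each array minus the naive mean of the same probe set, with bars at group means of 3 arrays. The dimmer probe set of Myh4 and the dimmest of Tnni2 (orange) stand at -1.31 and -1.33 in the severe group, beside 0.10 and -0.16 for the brightest probe set of each gene, while the dimmer one of Myh1 stands at -0.23 beside -0.17; these are deposited-scale values.

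Other genes of the sarcomere and of fast-fibre energy use put the members in context. In a list of 23 such genes, drawn up with earlier results known, 19 fell in severe against no swelling and 0 rose, with a median of -0.77 against -0.27 for the fast-fibre members and 0.14 for all genes. With quantile normalization 17 of the 23 were called lower (median -0.55), and on the hybridization controls 5 were (median -0.11). The 13 of them that averaged 50% or more of the array maximum had a median of -0.63 with 10 called lower, and the 10 dimmer ones had a median of -1.50 with 9 called lower. Ckmt2, the mitochondrial creatine kinase of muscle, had the largest decrease of the list at -3.07 ± 0.29 (adjusted p = 9.63e-07). Ldb3, a Z-disc scaffold, fell by 1.92 ± 0.20 (adjusted p = 2.17e-06). Ampd1, the muscle AMP deaminase, fell by 1.62 ± 0.20 (adjusted p = 6.97e-06). Des, the intermediate filament desmin, stood at 0.04 ± 0.12 and did not pass (adjusted p = 0.805). The 65 bright genes outside the muscle lists, not otherwise screened for muscle expression, had a median of -0.24, with 30 called lower and 8 higher.

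**Figure D4:**
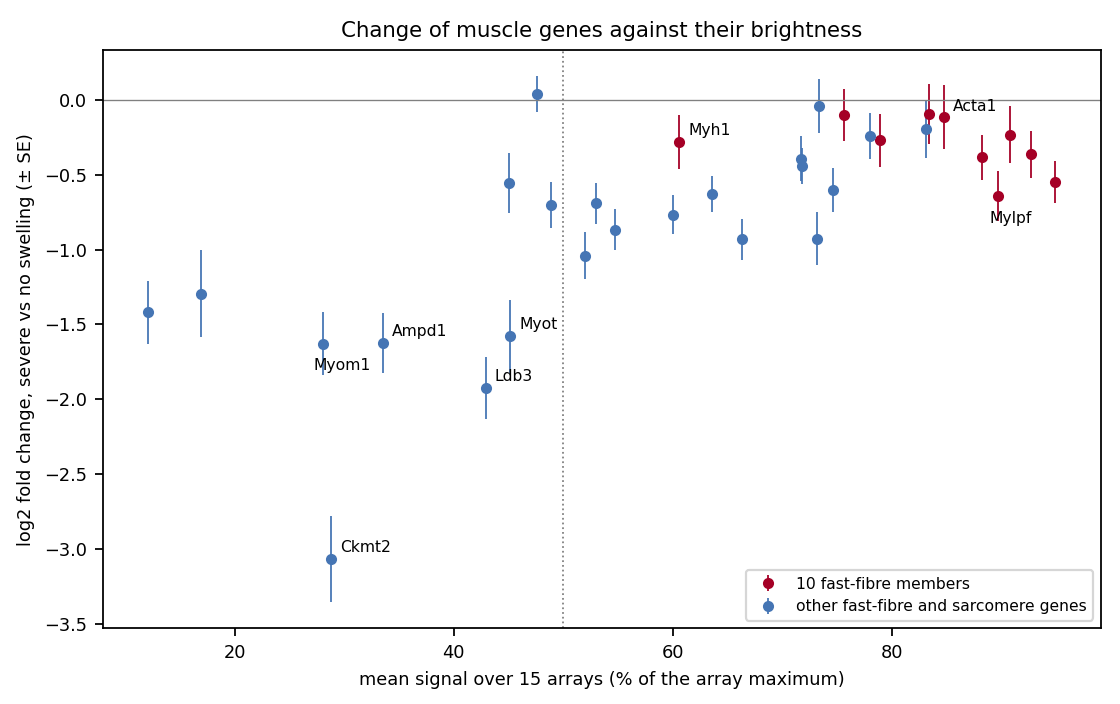
Log2 fold change in severe against no swelling on the deposited scale (vertical axis, bars are ± SE) against the mean signal over 15 arrays as a percentage of the array maximum (horizontal axis) for the 10 members and 23 other muscle genes. All members lie right of the dotted line at 50%, between -0.64 and -0.09, whereas dimmer muscle genes reach -3.07.

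At the step from no to mild swelling, 21 of the 23 other sarcomere and fast-fibre genes fell and 0 rose, with a median of -0.67, but 4 fell with quantile normalization and 0 on the hybridization controls, where the median was 0.11. Among them Ampd1 fell by 1.22 ± 0.20 (adjusted p = 0.000316), Ldb3 by 1.12 ± 0.20 (adjusted p = 0.000677), Myom2, an M-band protein, by 0.78 ± 0.13 (adjusted p = 0.000372) and Tcap, the titin cap, by 0.67 ± 0.12 (adjusted p = 0.00061). Of 13 slow and oxidative fibre genes, 2 fell and 1 rose at this step, with a median of -0.48 that turned to 0.25 on the hybridization controls, where 0 fell and 6 rose. Actn2, the Z-disc actinin of all fibres, fell by 0.94 ± 0.23 (adjusted p = 0.00491) and Mb, myoglobin, by 0.63 ± 0.16 (adjusted p = 0.00648). Tpm3, which also has non-muscle forms, rose by 1.46 ± 0.18 (adjusted p = 4.11e-05). In no swelling against naive the slow list had a median of -1.71 and 3 genes called lower while the fast-fibre members had a median of 0.21. The slow list's median there lay between -1.86 and -1.65 under all 5 scalings, but the genes called lower went from 1 with quantile normalization to 9 on the hybridization controls. Myh7, the slow heavy chain, had group means of 1759 naive and 305 without swelling and did not pass there (-3.15 ± 0.88, adjusted p = 0.0632). Myh2, the type 2A heavy chain that neighbours Myh1, had means of 7875 and 4089 (-1.61 ± 0.74, adjusted p = 0.257).

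The regulators of the muscle fibre programme moved with the members at the mild step in part. Of 14 measured, 7 fell and 1 rose (median -0.46), against 6 and 2 with quantile normalization (median -0.39) and 0 and 3 on the hybridization controls (median 0.29). Those that fell on the deposited scale included Eya1, a transcriptional cofactor of muscle genes, at -1.26 ± 0.24 (adjusted p = 0.000921), Six4 at -0.88 ± 0.13 (adjusted p = 0.000178) and Mef2c at -0.83 ± 0.16 (adjusted p = 0.00105). Rcan1, a calcineurin regulator, was the one that rose, by 1.32 ± 0.24 (adjusted p = 0.000592). Contractile genes of smooth muscle and of the cytoskeleton went the other way in part: 5 of 10 rose, 0 fell and 5 were not called. Under the other 4 scalings 4 to 6 rose and 0 fell, except that 1 fell with array medians aligned. In mild against naive 5 rose and 3 fell. Those that rose from no to mild swelling included the cytoskeletal genes Actn1 at 1.50 ± 0.18, Tpm4 at 1.43 ± 0.18, Actn4 at 1.04 ± 0.15 and Myh9 at 1.02 ± 0.15. These genes are expressed by fibroblasts and leukocytes as well.

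The genes whose profile over the 15 arrays was most like the mean of the members were Ttn, the giant spring of the sarcomere (Pearson r = 0.99), Aldoa (0.99), Ckm, muscle creatine kinase (0.98), a Gapdh control probe set (0.98) and Myl1, a fast myosin light chain (0.98). Among the members themselves r with that mean ran from 0.82 (Myh1) to 0.99 (Tnni2). The arrays share their scale across these points, and all 5 genes are themselves near the top of the range, with naive means of 9621 to 11152. Ttn fell by 0.54 ± 0.15 (adjusted p = 0.0121) in mild against no swelling, Ckm by 0.58 ± 0.20 (adjusted p = 0.028) and the Gapdh probe set by 0.58 ± 0.15 (adjusted p = 0.0071). Actb, measured by a control probe set, stood at -0.38 ± 0.15 (adjusted p = 0.0647).

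At the step from no to mild swelling, markers of synovial fibroblasts, macrophages and neutrophils were mostly called higher on the deposited scale. The medians of these lists were above 0 under all 5 scalings. The summed signal of 8 synovial fibroblast markers was 4452 to 8110 on the arrays without swelling and 14212 to 19075 on the mild arrays, with 7 of 8 called higher and 0 lower (6 higher and 1 lower with array medians aligned). Prg4, the lubricin of the synovial lining, went from a mean of 3497 to 6733 (adjusted p = 0.00292). Col1a1, the next largest signal of the list in the mild group, went from 1335 to 5919. Cd55, of the same list, went the other way, from 774 to 441, and was not called. The sum of 6 macrophage markers went from 1251 to 3151 without swelling to 5323 to 7503 in the mild group, with 6 of 6 called higher. For the 4 neutrophil markers measured the sums were 315 to 2325 and 3960 to 8410, with 4 of 4 called higher. Adipocyte markers were lower, with 3 of 4 called and a median between -1.07 and -0.46 over the 5 scalings. The fibroblast sum was 16528 to 23860 in the moderate and 21208 to 30196 in the severe group, and the neutrophil sum 6232 to 9337 and 8247 to 11442. From moderate to severe 0 of 8 fibroblast markers, 0 of 4 neutrophil markers and 0 of 10 members were called. The members' median there was 0.46, or 0.01 with quantile normalization. In no swelling against naive 3 of 4 neutrophil and 2 of 8 fibroblast markers were called higher, where 3.32% of all genes were called in either direction. The members' median there was 0.21 with 0 of 10 called, or 0.01 with quantile normalization. The summed signal of 6 cardiac muscle markers was 126 to 172 on the naive arrays, 138 to 189 without swelling, 222 to 300.5 mild, 327 to 512 moderate and 363 to 473 severe. Most of that rise was Tnnt2, with means of 29.8 naive and 247 severe. Mybpc3 went from 42.3 to 75.1, Tnni3 from 1.9 to 15 and Nppa from 15.3 to 17.8. Myh6 went down from 15.1 to 8.5 and Ryr2 from 43.3 to 36.8. In severe against no swelling 2 of the 3 tested cardiac markers were called higher, and 1 with quantile normalization or medians aligned. The part of cell composition in the members' differences was not tested.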

How the data were processed

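Per the labels' protocols, total RNA from an RNeasy kit was biotin-labelled for Affymetrix arrays, 1 for each sample. The intensity values deposited by the authors are linear signals of 45101 probe sets made, per the submitters' processing notes, with MAS5. The sources used here give neither its version nor scan dates or batches. The platform annotation gives 34958 probe sets 1 gene symbol, 932 several and 9211 none. A gene was represented by its probe set with the highest mean. Genes above the array's 40th percentile on at least 3 arrays were tested, 14310 of 18194. Group means over all 15 arrays were fitted to log2(signal + 16), which understates fold changes of dim genes, in R 4.3.3 with limma 3.58.1, with moderation along an intensity trend (10 residual and 5.56 prior degrees of freedom) and two-sided tests. The code was tested on simulated data. With 3 arrays a side, the smallest p of an exact permutation test would be 0.1. The number of arrays limits the precision. Promoter stretches come from RefSeq (GRCm38.p6).

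The members and all gene lists were chosen with earlier results of these data known. Named genes were all members, up to 4 genes per other list with the lowest p in mild against no swelling, the 5 genes most like the members' mean profile, and a fixed panel (Myh7, Myl2, Myl3, Myh2, Ckm, Des, Ttn, Pax7, Prg4, Gapdh and Actb). The genes named by brightness, such as Ckmt2, were chosen after their values were seen. Alternatives covered array scaling, pseudocount, filter, choice of probe set, intensity trend, array weights, a fit of only the groups compared, a replicate block and leaving out each array. Scaling on the bright end of each array was added after seeing the data.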

Additional observations from a re-analysis of the deposited data

How the results depend on the processing

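Array scaling mattered most, and beyond what each setting does by construction the cause was not tested. With quantile normalization 0 members were called in mild against naive, 0 in mild against no swelling and 1 in moderate against naive. Signs turned there for Myh4 (0.0302), Tnni2 (0.0056) and Tnnt3 (0.0506) in mild against no swelling and for Tnni2 (0.0202) in mild against naive, and 312 genes were called in no swelling against naive. With scaling on the bright end of the arrays the members called were 0, 0 and 2 in the same 3 comparisons, with 255 genes in no swelling against naive. With medians aligned 10 members were called in mild against naive and 8 in severe against no swelling. The members' medians there were -0.52 and -0.56, beside -0.04 and -0.09 for all genes. For most settings of this section the number of all genes called in the same comparison is not given. Such member counts describe the setting and cannot be set against a background share.

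On the hybridization controls 0 members were called in any tested comparison, the median of severe against naive turned to 0.38, and 86 genes were called in no swelling against naive and 231 in moderate against mild. The geometric mean of these controls ran from 547 to 1066 among the arrays without swelling and from 345 to 683 among the moderate ones. Scaling on it passes that scatter to every gene, so 0 calls cannot decide whether the members differ. In mild against no swelling the estimates there were 0.11 for Acta1, 0.13 for Actn3, 0.16 for Atp2a1, 0.17 for Myh1, 0.25 for Myh4 (0.14 for its dimmer probe set), 0.0582 for Mylpf, 0.21 for Pvalb, 0.20 for Tnnc2, 0.17 for Tnni2 and 0.22 for Tnnt3. In mild against naive they were 0.17 for Actn3, 0.14 for Myh1, 0.14 for Mylpf and 0.22 for Tnni2. In severe against no swelling they were 0.27 for Actn3, 0.013 for Mylpf and 0.10 for Tnnt3, and Tnnc2 was at 0.0298 in moderate against naive.

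Array quality weights, whose estimation stopped before its convergence tolerance, gave 10 members in mild against naive and 1 in moderate against mild, with 1156 genes in no swelling against naive, 9266 in mild against naive and 4561 in moderate against mild. Counting a gene through any of its probe sets gave 5 members in severe against no swelling, 2 in moderate against mild and 1 gene in severe against moderate. The dimmest probe set gave 2 members in moderate against mild, 0.0378 for Tnni2 in mild against naive, and 273, 511 and 1 genes in no swelling against naive, moderate against mild and severe against moderate; averaging probe sets gave 1 member in moderate against mild. In mild against naive 1 member was called with no filter, 2 with no intensity trend (and 297 genes in no swelling against naive) and 9 with only the groups compared (and 28 genes in moderate against mild). Counting the 20 brightest probe sets in place of the 50% limit, 87 member values lay near the maximum.

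The replicate numbers did not pair the samples: of 30 same-number pairs 5 correlated above 0.1, and 3 of 15 arrays were closest to their own number. With the replicate block 2 members were called in mild against naive and 300 genes in no swelling against naive. Leaving out 1 array gave 0 to 3 members in mild against naive, 3 to 9 in moderate against naive, 2 to 5 in severe against no swelling and 8 to 9 in mild against no swelling. For all genes it gave 126 to 549 in no swelling against naive, 196 to 2009 in moderate against mild and 0 to 2 in severe against moderate.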

Other observations

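Genes of muscle stem cells and of regenerating or fetal muscle were followed beside the fast-fibre genes, in a list of 12 measured genes. In severe against no swelling 5 rose and 2 fell, where 33% of all genes were called higher and 21.9% lower. Under the other 4 scalings 4 to 6 rose and 2 fell. Genes are named by their p in mild against no swelling or from the fixed panel, so only Tnnt2 and Myh3 of the 5 are named. The largest estimate of the list, 2.24, belongs to a gene not named here. Actc1, cardiac actin, which fetal and regenerating skeletal muscle also uses, had group means of 2474 naive, 2649 without swelling, 759.9 mild and 319.7 severe. It fell by 2.96 ± 0.31 in severe against no swelling (adjusted p = 2.10e-06). Pax3, a factor of muscle precursors, fell by 1.26 ± 0.28 (adjusted p = 0.00108). Tnnt2, cardiac troponin T, an early form in muscle development, went from a mean of 54.6 without swelling to 247 and rose by 1.95 ± 0.29 (adjusted p = 3.48e-05). Myh3, embryonic myosin heavy chain, rose by 0.86 ± 0.34 (adjusted p = 0.043) from a mean of 84.6 to 153. Pax7, the satellite cell factor, had means of 36.2 and 33.3 and stood at -0.09 ± 0.19 (adjusted p = 0.71).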
